A study of Mus musculus with 12 samples.

Results

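The change with doxycycline (Dox) was described in tumours of APC-deleted MC38 cells, a mouse colon carcinoma line. These are 6 of the series' 12 arrays: 3 tumours of the group APC-KO Dox and 3 of the group APC-KO no Dox. The other 6 arrays, 3 of APC-WT Dox and 3 of APC-WT no Dox, entered the same fit and serve to set the change with Dox in APC-intact tumours beside it. The cells of all 4 groups carried an inducible hairpin against Tdo2 (ishTDO2), formed tumours in the cecum of C57BL/6 mice, and the mice drank water with Dox, which switches the hairpin on, or went without it. The series' design text speaks of cell lines and the sample labels of tumours. Neither says whether the APC-KO line is 1 clone, nor whether each of the 3 tumours in a group grew in its own mouse, so p-values cover the spread among samples alone, and part of that spread may be technical. Tumours with Dox and no hairpin were not analysed here, so the hairpin and Dox itself cannot be told apart.

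As background, APC is the scaffold of the complex that marks beta-catenin for destruction, and its loss is the usual early event in colorectal cancer. TDO2 opens the ring of tryptophan and so feeds the kynurenine pathway, whose products can activate the aryl hydrocarbon receptor. Several programmes recur below: hypoxia-inducible factor (HIF), which in low oxygen turns on glucose uptake, glycolysis and vessel growth factors, NF-kB, which turns on chemokines of inflammation, and ATF4, which turns on amino acid synthesis.

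Of 18193 genes with a probe set of 1 gene symbol, 11070 were tested, those whose brightest probe set had a mean log2 value of at least 5.55 over all 12 arrays, and 7123 lay under that floor. Values are the authors' log2 expression values, differences are Dox minus no Dox on that scale, the value after ± is the standard error from limma, and a gene passed where its adjusted p was under 0.05. Arrays within a group correlated at 0.995 or more. RNA of host cells was measured with that of the tumour cells: the macrophage genes Lyz2 and Csf1r had means of 13.18 and 11.96. In such bulk samples fewer cells of a type and less RNA per cell cannot be told apart. Of 16 colon epithelium markers 12 lay under the floor, Cdx2, Krt20, Muc2 and Vil1 among them, so these markers do not show the labelled colon origin.

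The targeted gene could not be followed. Tdo2 has 3 probe sets, all under the floor. The brightest read 3.85, 3.84 and 4.17 in APC-KO Dox tumours, against 3.62, 3.74 and 3.70 in APC-KO no-Dox tumours, and no knockdown can be read at such levels. Apc, of which the deleted part was not stated, read 8.19, 8.32 and 8.25 in APC-KO Dox tumours and 8.41, 8.29 and 8.35 in APC-KO no-Dox tumours at its brightest probe set, a difference of -0.09 ± 0.07 that did not pass.

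With Dox, 60 genes changed in APC-KO tumours, which is 0.542% of those tested: 56 fell (0.506%) and 4 rose (0.0361%). For every 1 of the 60 the 3 Dox and the 3 no-Dox values did not overlap. Such separation was also seen for 9.67% of all tested genes in the lower and 8.08% in the higher direction, so by itself it does not mark them out. The 56 fell by a median of 0.75, and 21 of them by less than 1.5-fold, whereas the median over all genes tested was 0.002. Genes of oxygen sensing, glucose metabolism, metal binding and neutrophil attraction were among those that fell. The plot of the difference against the mean level shows the genes that fell spread over the range of levels, and the largest falls among genes of low to middle level.

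**Figure D1:**
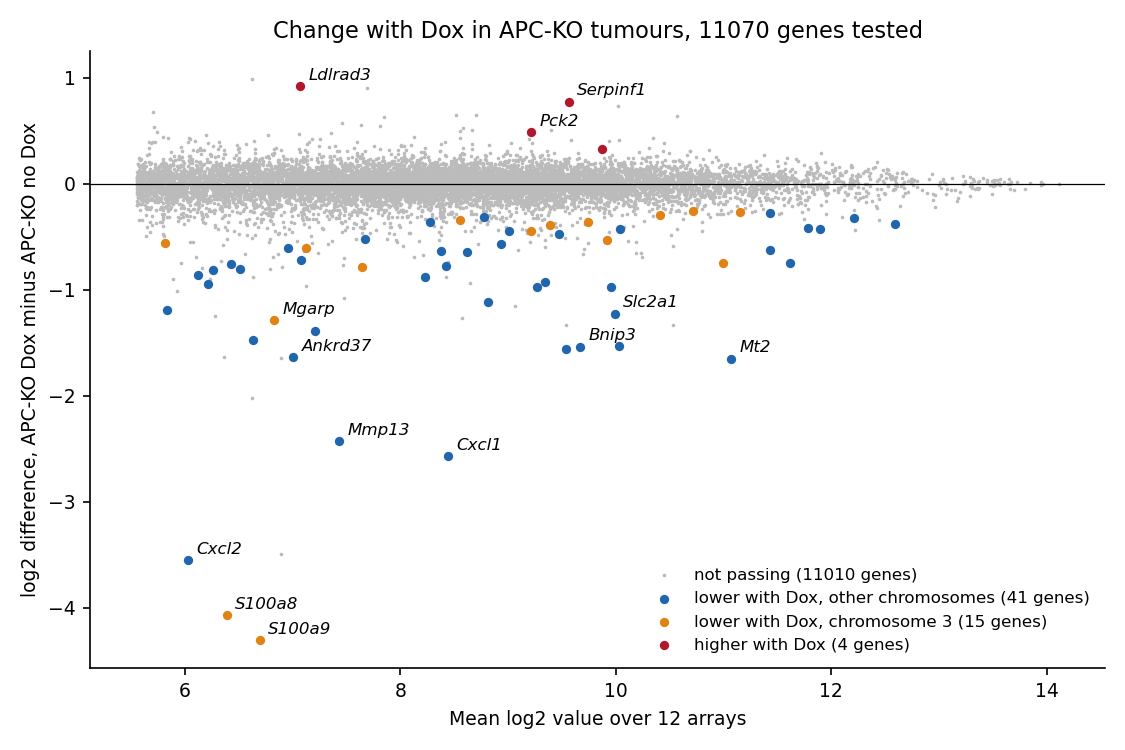
Each point is 1 of 11070 genes, with its mean log2 value over 12 arrays on the x axis and the log2 difference, APC-KO Dox minus APC-KO no Dox, on the y axis. Blue and orange points are the 56 genes that fell, orange those of chromosome 3, and red the 4 that rose, while grey points did not pass; S100a9 lies lowest and Ldlrad3 is the highest of those that passed.

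For 3 groups of genes that fell, the RefSeq sequence around the transcription start is shown (build GRCm38.p6, 250 bases before to 50 after the start). For each group a factor is known that can act on it, not necessarily the only one, and its short motif can be looked for. Whether that factor took part here was not tested. Capitals mark the motif on either strand. The first set holds HIF targets of glucose and mitochondrial metabolism, searched for ACGTG, the core of the hypoxia response element. Where it stands within a cacgtg, both strands match and overlap.
Slc2a1, chr4:119108495-119108794, plus strand: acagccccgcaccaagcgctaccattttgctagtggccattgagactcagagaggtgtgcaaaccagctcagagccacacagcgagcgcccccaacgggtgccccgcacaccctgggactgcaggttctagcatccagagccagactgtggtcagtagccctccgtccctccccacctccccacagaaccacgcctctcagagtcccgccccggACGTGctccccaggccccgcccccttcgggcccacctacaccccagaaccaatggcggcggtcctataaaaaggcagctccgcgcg
Bnip3, chr7:138909457-138909756, minus strand: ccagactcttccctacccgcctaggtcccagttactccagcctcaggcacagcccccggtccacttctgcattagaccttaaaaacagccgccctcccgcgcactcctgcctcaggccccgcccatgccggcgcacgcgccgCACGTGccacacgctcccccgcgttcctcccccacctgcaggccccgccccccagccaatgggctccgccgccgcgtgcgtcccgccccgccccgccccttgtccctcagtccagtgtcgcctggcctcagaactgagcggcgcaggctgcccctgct
Ankrd37, chr8:45999801-46000100, minus strand: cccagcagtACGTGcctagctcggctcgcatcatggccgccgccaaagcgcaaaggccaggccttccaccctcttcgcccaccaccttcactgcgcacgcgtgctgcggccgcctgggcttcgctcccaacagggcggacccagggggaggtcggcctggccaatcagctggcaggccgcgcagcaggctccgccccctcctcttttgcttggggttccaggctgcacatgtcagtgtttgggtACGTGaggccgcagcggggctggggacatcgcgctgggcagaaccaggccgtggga
Ldha, chr7:46845554-46845853, plus strand: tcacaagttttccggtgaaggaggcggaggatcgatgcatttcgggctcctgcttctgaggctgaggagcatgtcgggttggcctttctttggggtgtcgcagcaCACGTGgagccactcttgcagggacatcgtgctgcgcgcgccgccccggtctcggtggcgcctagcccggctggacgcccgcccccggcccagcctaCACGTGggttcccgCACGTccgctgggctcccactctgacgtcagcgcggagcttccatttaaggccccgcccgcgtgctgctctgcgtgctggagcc
The promoter of Ldha, the first of 2 listed for that gene, held 5 matches, overlapping pairs within a cacgtg among them. Those of Bnip3 (both in 1 cacgtg) and Ankrd37 held 2 each and that of Slc2a1 held 1. Overlapping matches were counted in the same way in all promoters. Among 32851 promoters of the same length, 19.6% held at least 1 and 0.183% at least 5, and of the 8957 tested genes with a promoter listed 29.5% held at least 1. Of the HIF and glycolysis genes that passed and have a promoter listed, 11 of 14 held the motif, as did 15 of 21 tested members that did not pass, which is 78.6% and 71.4%.

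The second set holds the neutrophil chemokines, searched on both strands for a form of the NF-kB site, GGG, then any pair of bases, then TTTCC.
Cxcl1, chr5:90890995-90891294, plus strand: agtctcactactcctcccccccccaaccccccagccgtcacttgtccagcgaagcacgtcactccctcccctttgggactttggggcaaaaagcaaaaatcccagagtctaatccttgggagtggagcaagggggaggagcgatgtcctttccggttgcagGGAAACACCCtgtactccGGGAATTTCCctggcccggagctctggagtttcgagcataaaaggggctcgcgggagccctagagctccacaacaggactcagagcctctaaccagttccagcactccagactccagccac
Cxcl2, chr5:90903649-90903948, plus strand: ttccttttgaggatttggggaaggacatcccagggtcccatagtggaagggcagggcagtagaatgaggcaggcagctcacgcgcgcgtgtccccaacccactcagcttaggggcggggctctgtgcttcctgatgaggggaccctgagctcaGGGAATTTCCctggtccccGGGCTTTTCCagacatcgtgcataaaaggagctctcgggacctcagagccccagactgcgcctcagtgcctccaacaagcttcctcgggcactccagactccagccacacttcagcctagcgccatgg
Both held 2 matches, which only 10 of the 32851 promoters did (0.0304%), and at least 1 was present in 1.63%. Counted from the start, the first match began at -89 in Cxcl1 and at -97 in Cxcl2, and no matches overlapped. Both promoters share the run GGGAATTTCC.

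The third set holds the metallothionein genes, searched for TGCNCNC, a looser form of the core of the metal response element. Any base was allowed at each N, so a match need not be such a core.
Mt1, chr8:94178839-94179138, plus strand: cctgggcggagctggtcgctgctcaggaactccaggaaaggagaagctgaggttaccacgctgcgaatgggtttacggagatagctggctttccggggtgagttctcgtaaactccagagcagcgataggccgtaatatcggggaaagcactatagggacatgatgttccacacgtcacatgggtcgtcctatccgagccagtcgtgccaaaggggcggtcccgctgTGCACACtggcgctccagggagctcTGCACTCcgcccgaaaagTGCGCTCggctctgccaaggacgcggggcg
Mt2, chr8:94172368-94172667, plus strand: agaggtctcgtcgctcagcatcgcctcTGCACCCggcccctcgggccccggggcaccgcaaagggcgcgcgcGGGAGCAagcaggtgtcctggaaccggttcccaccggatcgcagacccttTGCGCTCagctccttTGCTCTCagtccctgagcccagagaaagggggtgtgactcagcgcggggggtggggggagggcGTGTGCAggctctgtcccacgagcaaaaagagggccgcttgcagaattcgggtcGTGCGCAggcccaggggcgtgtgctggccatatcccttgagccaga
Mt2 held 6 matches and Mt1 held 3. At least 1 was found in 51% of promoters, at least 3 in 7.1% and at least 6 in 0.225%. A match describes letters and is no measure of a factor's binding, and the motifs were chosen with the genes in view.

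Of 19 tested genes of glucose uptake, glycolysis and lactate, 8 fell, none rose and 11 did not pass, whereas 0.506% of all genes tested fell. The median difference of the 19 was -0.41, and 17 lay below 0, against 49.2% of all genes tested. With Dox in APC-WT tumours 17 of the 19 lay below 0 as well, with a median of -0.12, as did 5863 of the 11070 genes tested. Values of the 2 groups did not overlap, with Dox lower, for 17 of the 19, against 9.67% of all genes. Slc2a1 encodes the main glucose transporter of tumour cells. It read 9.64, 9.30 and 9.50 in APC-KO Dox tumours, against 10.89, 10.68 and 10.54 in APC-KO no-Dox tumours. It fell by 1.22 ± 0.14, or 2.34-fold, with an adjusted p of 0.0063. Every APC-KO Dox tumour lay below every APC-KO no-Dox tumour by at least 0.897. Further down the pathway Pfkl, a phosphofructokinase, fell by 0.64 ± 0.11, Aldoa, an aldolase, by 0.63 ± 0.10, and Pfkfb3, which makes the activator of phosphofructokinase, by 0.60 ± 0.11. Tpi1, Pgam1 and Pkm, enzymes of the later steps, fell by 0.43 ± 0.08, 0.28 ± 0.05 and 0.33 ± 0.06. Ldha, which turns pyruvate into lactate, fell by 0.41 ± 0.07 with 11.72, 11.49 and 11.64 in APC-KO Dox tumours against 12.16, 11.97 and 11.95 in APC-KO no-Dox tumours. Pdk1, a kinase that inhibits pyruvate dehydrogenase, stood at -0.48 ± 0.11 and did not pass (adjusted p 0.066).

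Storage forms of glucose lay outside that list but 2 genes of glycogen passed. Ppp1r3b, which brings protein phosphatase 1 to glycogen, read 5.88, 5.47 and 5.98 in APC-KO Dox tumours, against 6.74, 6.67 and 6.37 in APC-KO no-Dox tumours, and fell by 0.81 ± 0.16 (1 Dox array under the floor). Pgm1, the phosphoglucomutase between glycogen and glycolysis, fell by 0.36 ± 0.07. Respiration gave other values. Of 23 oxidative phosphorylation genes 0 passed in limma, the median was 0.016, and the members lay between -0.14 and 0.18. Ndufb5, a subunit of complex I on chromosome 3, had the smallest p among them at -0.14 ± 0.04.

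Of 22 tested HIF targets outside glycolysis 7 fell and none rose, with a median of -0.48, whereas 0.506% of all genes tested fell. Groups did not overlap, Dox lower, for 17 of the 22, against 9.67% of all genes. Of the 22, 20 lay below 0 in APC-KO tumours and 19 in APC-WT tumours, where the median was -0.19 and 5863 of the 11070 genes tested lay below 0. Bnip3, a mitophagy receptor, read 9.22, 8.84 and 8.86 in APC-KO Dox tumours and 10.71, 10.59 and 10.23 in APC-KO no-Dox tumours, and fell by 1.53 ± 0.21 (adjusted p 0.0086). Ankrd37, a small ankyrin repeat protein, read 6.75, 5.62 and 6.14 in APC-KO Dox tumours, against 7.96, 7.70 and 7.75 in APC-KO no-Dox tumours. It fell by 1.63 ± 0.23 with the same adjusted p as Bnip3, and its Dox values spread more widely than its no-Dox values. Egln3, a prolyl hydroxylase that senses oxygen and itself is induced by HIF, read 9.81, 9.50 and 9.68 in APC-KO Dox tumours, against 10.51, 10.99 and 10.41 in APC-KO no-Dox tumours. It fell by 0.97 ± 0.13, and no-Dox replicate 2 lay highest. Ero1a, an oxidase of disulfide bond formation, Ndrg1, a differentiation-related stress gene, and Ak4, a mitochondrial adenylate kinase, fell by 0.97 ± 0.18, 0.92 ± 0.14 and 0.80 ± 0.15. Bhlhe40, a transcriptional repressor, and Higd1a, a respiratory chain assembly protein, stood at -0.61 ± 0.13 and -0.39 ± 0.09 and did not pass (adjusted p 0.062 and 0.074).

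Further genes that fell are known to rise in low oxygen but were in none of the lists. Mgarp, a mitochondrial transport protein, read 6.72, 6.52 and 6.48 in APC-KO Dox tumours, against 8.18, 7.78 and 7.60 in APC-KO no-Dox tumours. It fell by 1.28 ± 0.16 and shared the smallest adjusted p of the comparison, 0.0063, with Slc2a1. Hilpda, which slows the breakdown of lipid droplets, fell by 0.88 ± 0.16. Adm, the vasodilator adrenomedullin and a member of the HIF list, read 6.06, 5.45 and 5.75 in APC-KO Dox tumours, against 6.59, 6.73 and 6.51 in APC-KO no-Dox tumours. Angpt2, which loosens vessel walls, read 6.03, 5.66 and 5.69 with Dox, against 6.65, 6.96 and 6.60 without. Pgf, a ligand of the VEGF receptor family, read 7.19, 6.84 and 6.97 with Dox, against 7.58, 7.84 and 7.74 without. The groups did not overlap for any of these genes: Adm fell by 0.86 ± 0.14 with 1 Dox array under the floor, Angpt2 by 0.94 ± 0.14 and Pgf by 0.72 ± 0.10. Other secreted members of the HIF list did not pass. Vegfa, the main vessel growth factor, read 9.18, 8.55 and 9.30 in APC-KO Dox tumours, against 9.52, 9.68 and 9.48 in APC-KO no-Dox tumours (-0.55 ± 0.17, adjusted p 0.190), and Angptl4, a lipase inhibitor that also acts on vessels, stood at -0.44 ± 0.24 (0.464). Of 10 tested endothelial markers 0 passed, with a median of 0.038, and 7 lay above 0 and 3 below. Among those 3, Vwf, the clotting factor carrier of vessel walls, stood at -0.55 ± 0.13 (adjusted p 0.088). Cldn5, a tight junction gene, stood at -0.40 ± 0.12.

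**Figure D2:**
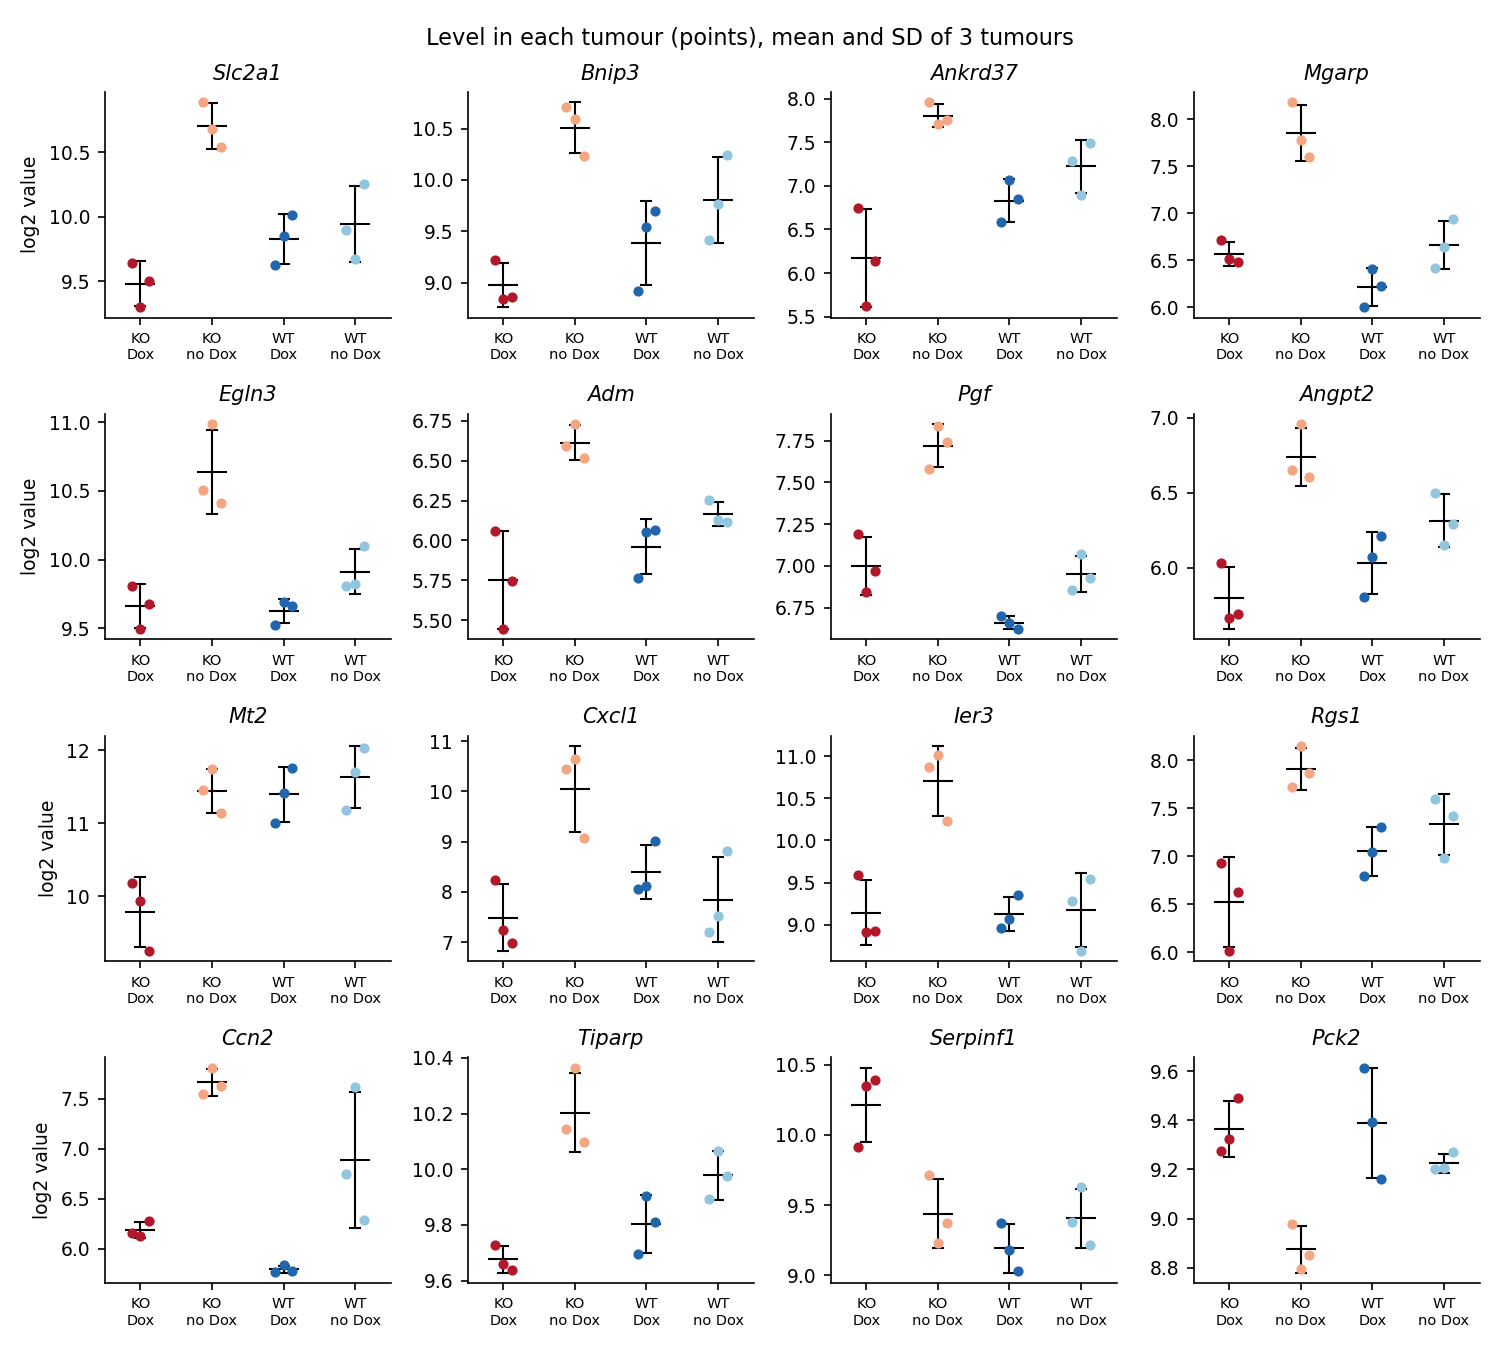
Each panel shows 1 gene, with its log2 value in every tumour as points and the mean with SD of 3 tumours as bars, in the order APC-KO Dox, APC-KO no Dox, APC-WT Dox and APC-WT no Dox. In 14 panels the APC-KO Dox points lie below the APC-KO no-Dox points, and for Serpinf1 and Pck2 above them.

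The metallothioneins, small proteins that bind zinc and copper, fell by a similar size. Mt2 read 10.19, 9.93 and 9.26 in APC-KO Dox tumours, against 11.45, 11.74 and 11.14 in APC-KO no-Dox tumours. Mt1 read 9.32, 9.20 and 8.57 with Dox, against 10.64, 10.75 and 10.29 without. Mt2 fell by 1.65 ± 0.25 and Mt1 fell by 1.53 ± 0.23, both with an adjusted p of 0.00995, and replicate 3 was lowest in both Dox and no-Dox tumours. The other 9 tested members of the metallothionein and zinc list, zinc transporters and the metal-sensing factor Mtf1 among them, did not pass and lay between -0.13 and 0.065. Slc39a1, a zinc importer, was the lowest of these at -0.13 ± 0.05. For both metallothionein genes all 3 APC-KO Dox values lay below all 6 APC-WT values.

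Chemokines that draw neutrophils through the receptor CXCR2 showed some of the largest falls. Cxcl1 read 8.24, 7.24 and 6.99 in APC-KO Dox tumours, against 10.44, 10.65 and 9.07 in APC-KO no-Dox tumours, and fell by 2.57 ± 0.46 (adjusted p 0.026). Cxcl2 read 5.22, 3.70 and 4.10 with Dox, all under the floor, against 8.60, 7.79 and 7.28 without, so it fell at least 5.06-fold (adjusted p 0.00995). Such bounds set the no-Dox mean against the floor. The other 5 members of the list lay under the floor and were not tested. Cxcl3, another such ligand, read 3.94, 2.51 and 2.38 in APC-KO Dox tumours and 7.40, 5.50 and 5.86 in APC-KO no-Dox tumours, with an adjusted p of 0.131 in the fit without a floor. Il6, which encodes an inflammatory cytokine, read 3.77, 3.69 and 3.66 with Dox, against 5.94, 5.11 and 4.81 without. It passed in that fit with an adjusted p of 0.044, though 2 of its no-Dox values were under the floor too.

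The genes of the calprotectin subunits, abundant in neutrophils, fell with these ligands. S100a8 read 4.50, 5.32 and 3.86 in APC-KO Dox tumours, against 9.35, 9.17 and 7.35 in APC-KO no-Dox tumours, at least 8.41-fold lower (adjusted p 0.0113). S100a9 read 4.78, 5.43 and 4.01 with Dox, against 10.00, 9.51 and 7.61 without, at least 11.2-fold lower (adjusted p 0.0133). In both, no-Dox replicate 3 was the lowest of its group and still above every Dox value. Other neutrophil markers did not pass: Csf3r, the receptor for granulocyte colony-stimulating factor, stood at -0.17 ± 0.09 with overlapping groups, Mmp9 at -0.22 ± 0.17, and 7 more, among them Camp, Ltf, Ngp and Mpo, lay under the floor. The 4 tested markers averaged, per tumour, 6.11 to 6.76 in APC-KO Dox tumours and 7.87 to 9.07 in APC-KO no-Dox tumours. In APC-WT Dox tumours the average was 7.06 to 7.95 and in APC-WT no-Dox tumours 6.15 to 7.27. S100a8 and S100a9, which passed in this same comparison, are among the 4 and carry most of the difference. The average thus restates them and is no reading of Csf3r and Mmp9. Whether neutrophil number took part was not tested.

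Upstream and downstream of NF-kB, 20 tested genes of IL-1, IL-6, TNF and NF-kB feedback had a median of -0.32. Of these, 18 lay below 0, against 49.2% of all genes tested, and 2 fell, against 0.506%. Ier3, an early response gene that limits cell death, read 9.59, 8.92 and 8.92 in APC-KO Dox tumours, against 10.87, 11.02 and 10.23 in APC-KO no-Dox tumours, and fell by 1.56 ± 0.24. Cd14, the co-receptor for lipopolysaccharide, fell by 0.48 ± 0.09. Lif, an IL-6 family cytokine, stood at -0.67 ± 0.14 (adjusted p 0.053), Tnfaip3, a brake on NF-kB, at -0.52 ± 0.11 (0.062), and Il1r2, the IL-1 decoy receptor, at -0.80 ± 0.19 (0.089), none of them passing. Osm, another cytokine of the IL-6 family and in no list, fell by 0.76 ± 0.14. It read 6.25, 6.08 and 6.03 with Dox, against 7.23, 6.76 and 6.65 without. Cebpd, a transcription factor of the acute phase, fell by 1.11 ± 0.18.

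Of 16 other chemokines 1 fell, against 0.506% of all genes tested, with a median of -0.18. Cxcl14, an orphan chemokine, read 5.30, 4.88 and 4.93 in APC-KO Dox tumours, against 6.41, 6.34 and 5.92 in APC-KO no-Dox tumours, at least 1.59-fold lower (adjusted p 0.00781). Ccl3, a macrophage chemokine, stood at -1.24 ± 0.28 with 1 Dox array under the floor (adjusted p 0.070). Of 25 immediate early genes 2 fell, Ier3 and Dusp1, against the same 0.506%. Dusp1, a MAP kinase phosphatase, fell by 0.77 ± 0.16, at the edge of the threshold with an adjusted p of 0.04998. Atf3 and Zfp36, a stress factor and an mRNA decay factor, stood at -0.54 ± 0.14 and -0.41 ± 0.12. Genes of leukocytes in no list fell too: Rgs1, a brake on chemokine receptor signalling, read 6.93, 6.02 and 6.63 with Dox, against 7.72, 8.15 and 7.87 without, and fell by 1.39 ± 0.21, and Srgn, the granule proteoglycan serglycin, fell by 0.75 ± 0.13. Lgals3, the lectin galectin-3, fell by 0.38 ± 0.08.

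Macrophage and monocyte markers had a median of -0.092 over 13 tested, and Cd14 alone passed, against 0.506% of all genes tested that fell. Cd68, a lysosomal marker, stood at -0.22 ± 0.05, Msr1, a scavenger receptor, at -0.39 ± 0.11, and Ccr2, the receptor of incoming monocytes, at 0.51 ± 0.17, none passing. The mean log2 value over the 13 was 10.50 to 10.54 in APC-KO Dox tumours and 10.57 to 10.65 in APC-KO no-Dox tumours. Enzymes often made by such cells did not pass: Arg1, arginase, stood at -1.33 ± 0.32 (adjusted p 0.092), Hmox1, the haem oxygenase, at -1.26 ± 0.32 (0.111), and Ptgs2, cyclooxygenase 2, at -0.74 ± 0.19 (0.120). For each of these the groups did not overlap, as for 9.67% of all genes tested in the lower direction. Arg1 and Hmox1 also met a naming rule that required it. T cell, NK cell, dendritic cell and fibroblast lists had 0 members passing in limma, with medians of -0.25, -0.055, -0.088 and 0.073.

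Among genes that cut or build matrix, 1 of 16 proteolysis genes and 1 of 21 collagen and matricellular genes fell, against 0.506% of all genes tested. Mmp13, a collagenase, read 6.55, 5.50 and 5.22 in APC-KO Dox tumours, against 8.69, 7.58 and 8.30 in APC-KO no-Dox tumours, and fell by 2.43 ± 0.43 with 2 Dox arrays under the floor. Mmp12, the macrophage elastase, read 6.64, 3.67 and 3.27 with Dox, against 8.85, 7.68 and 7.54 without. With 2 Dox arrays under the floor it did not pass (adjusted p 0.086). The median of the 16 tested genes of matrix proteolysis was -0.13. Ccn2, connective tissue growth factor, read 6.16, 6.13 and 6.27 with Dox, against 7.55, 7.81 and 7.63 without, and fell by 1.48 ± 0.23 with little spread in either group. Its relative Ccn1 stood at -0.63 ± 0.14 (adjusted p 0.073) and Thbs1, thrombospondin 1, at -0.57 ± 0.16. Over 21 collagen and matricellular genes the median was 0.024.

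In the collagen and matricellular list 1 of 21 genes rose, against 0.0361% of all genes tested. This was Serpinf1, which encodes PEDF, a secreted inhibitor of vessel growth. It read 9.91, 10.35 and 10.39 in APC-KO Dox tumours, against 9.71, 9.23 and 9.37 in APC-KO no-Dox tumours, a rise of 0.78 ± 0.15 (adjusted p 0.034). Ldlrad3, a receptor-like protein, read 7.68, 7.59 and 8.33 with Dox, against 6.94, 6.98 and 6.91 without. The rise was 0.92 ± 0.19, and Dox replicate 3 lay highest. Arhgap11a, a gene of the mitosis list, read 9.94, 9.95 and 10.19 with Dox, against 9.75, 9.70 and 9.65 without, a rise of 0.33 ± 0.07.

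Amino acid synthesis genes under ATF4 lay mostly above 0. Of 20 tested, 17 lay above 0, against 50.8% of all genes, with a median of 0.32, but 1 rose, against 0.0361% of all genes tested. Pck2, mitochondrial phosphoenolpyruvate carboxykinase, read 9.28, 9.32 and 9.49 in APC-KO Dox tumours, against 8.98, 8.79 and 8.85 in APC-KO no-Dox tumours, a rise of 0.49 ± 0.10 (adjusted p 0.041). Asns, asparagine synthetase, stood at 0.64 ± 0.15 (adjusted p 0.089), with 10.86, 10.82 and 11.10 in APC-KO Dox tumours against 10.60, 9.86 and 10.40 in APC-KO no-Dox tumours. Gars, a glycyl-tRNA synthetase, stood at 0.23 ± 0.05 (0.064), Psat1, of serine synthesis, at 0.44 ± 0.12 and Shmt2, which takes a carbon unit from serine, at 0.34 ± 0.10. Aldh1l2, a mitochondrial folate enzyme in no list, stood at 0.90 ± 0.21 (0.081). In APC-WT tumours the median of the ATF4 list was 0.175 and 2 of 20 lay below 0.

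Cell division genes showed small differences of 1 sign. All 20 tested DNA replication genes lay above 0, against 50.8% of all genes tested, with a median of 0.13, and 0 passed in limma. Of 23 mitosis genes 22 lay above 0, with a median of 0.14, and Arhgap11a alone passed, against 0.0361% of all genes tested that rose. Groups did not overlap, Dox higher, for 6 and 8 of them, against 8.08% of all genes. Foxm1 and Aurkb, a transcription factor and a kinase of mitosis, stood at 0.26 ± 0.07 and 0.28 ± 0.08, and Mcm10, of replication origins, at 0.26 ± 0.08. Genes just short of the threshold in this direction were Ddx39a, an RNA helicase (0.32 ± 0.07, adjusted p 0.052), and Knl1, a kinetochore scaffold (0.32 ± 0.07, 0.062). In APC-WT tumours the mitosis median was -0.125 and all 23 lay below 0, as did 5863 of the 11070 genes tested. Cdkn1a, the cell cycle inhibitor p21, read 8.10, 7.71 and 7.78 in APC-KO Dox tumours, against 8.64, 8.38 and 8.46 in APC-KO no-Dox tumours, and fell by 0.63 ± 0.10. It was the 1 gene of 15 p53 targets that passed, against 0.506% of all genes tested that fell, and the median of these targets was -0.019.

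**Figure D3:**
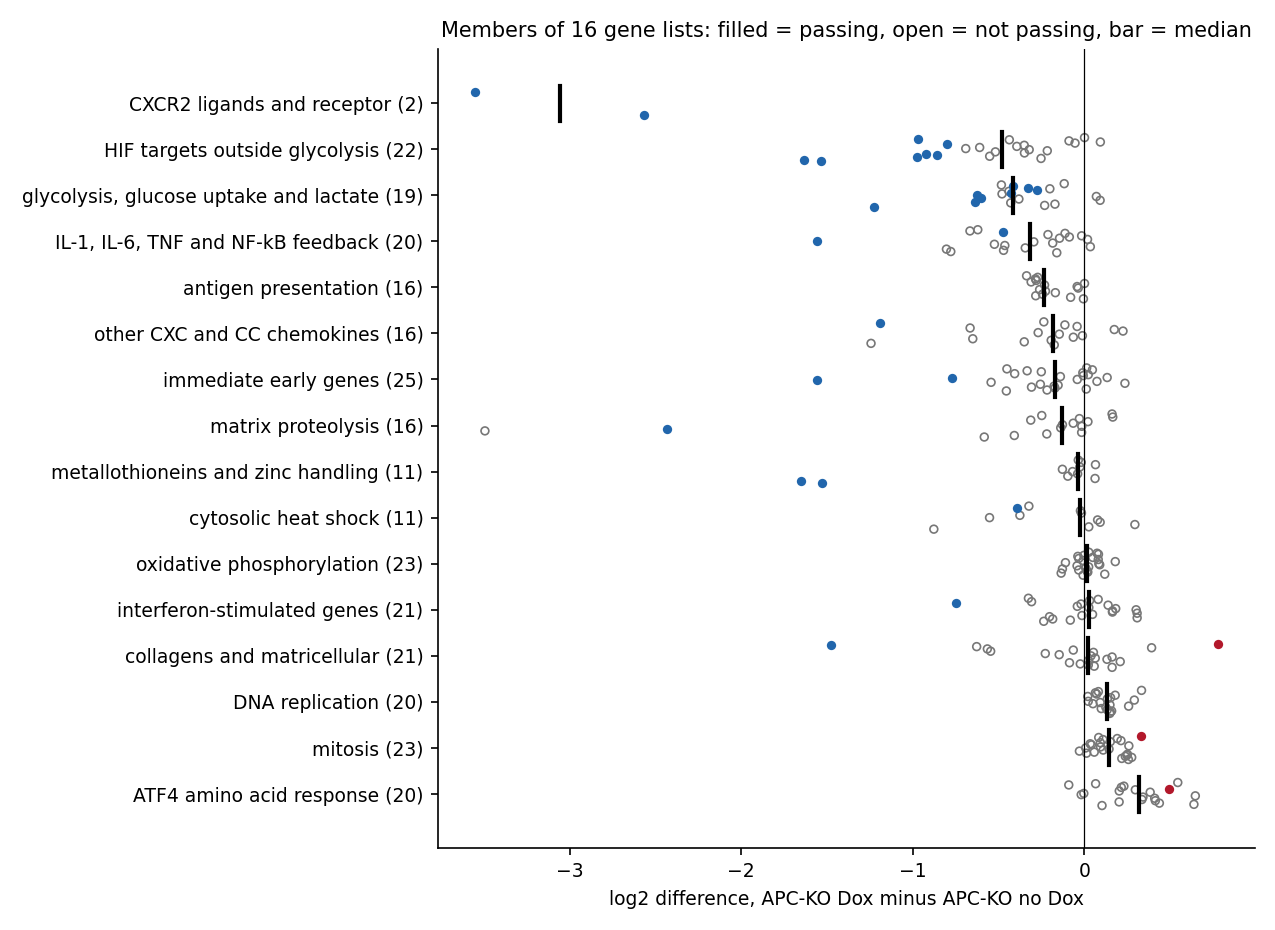
Each row is 1 gene list with its number of tested members, each point a member's log2 difference, APC-KO Dox minus APC-KO no Dox, filled where it passed and open where it did not, and the bar is the list's median. HIF and glycolysis members spread to the left of 0, oxidative phosphorylation members cluster at 0, and the ATF4 list has its median at 0.32.

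Few genes of the pathways that the design names could be tested. Of 9 tested Wnt and beta-catenin targets 0 passed in limma, with a median of 0.085, and 8 lay under the floor. Lef1, a transcription partner of beta-catenin, stood at 0.24 ± 0.09 and Ccnd1, cyclin D1, at 0.10 ± 0.04. Wnt7b, a Wnt ligand, was in no list and fell by 0.57 ± 0.11. Of 18 genes from tryptophan to kynurenine, 11 lay under the floor, Ido1, Ido2 and Kmo among them, and of the 6 tested 0 passed. The amino acid carrier Slc7a5, a member, stood at 0.38 ± 0.15. Of 7 tested aryl hydrocarbon receptor targets 1 fell, against 0.506% of all genes tested. Tiparp, which silences that receptor, read 9.73, 9.66 and 9.64 in APC-KO Dox tumours, against 10.14, 10.37 and 10.10 in APC-KO no-Dox tumours. It fell by 0.53 ± 0.08. Cyp1a1, Cyp1b1 and Ahrr, further targets of the receptor, lay under the floor, and Tiparp is one of the genes on chromosome 3 described next.

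Position on the genome went with the change. Of the 60 genes that passed 15 lie on chromosome 3, and all 15 fell. They are 2.71% of the 553 tested genes of that chromosome, whereas 45 of the 10517 others passed (0.428%). The shift was not limited to those 15: the median difference over chromosome 3 was -0.122, against 0.008 over all other genes, and 87.5% of its genes lay below 0, against 47.2% elsewhere. The next most shifted chromosomes were 2, at 0.063, and 13, at -0.061. Groups did not overlap, Dox lower, for 36% of chromosome 3 genes and 8.28% of the others.

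The shift ran along the whole chromosome. In 10 consecutive windows of 55 or 56 genes the median lay between -0.151 and -0.081, and between 78.2% and 94.6% of each window's genes were below 0. Array by array, chromosome 3 genes deviated from their own 12-array mean by a median of -0.030, -0.007 and 0.014 in APC-KO Dox tumours and by 0.109, 0.144 and 0.074 in APC-KO no-Dox tumours. In APC-WT Dox tumours the values were -0.072, -0.031 and -0.002, and in APC-WT no-Dox tumours -0.026, -0.066 and -0.086. The 3 APC-KO no-Dox tumours thus lay above every other tumour, and the difference with Dox in APC-WT tumours was a median of 0.015. With 1 APC-KO array left out the median of chromosome 3 lay between -0.137 and -0.100. DNA copy number was not measured here, so a gain or loss of the chromosome was not tested.

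**Figure D4:**
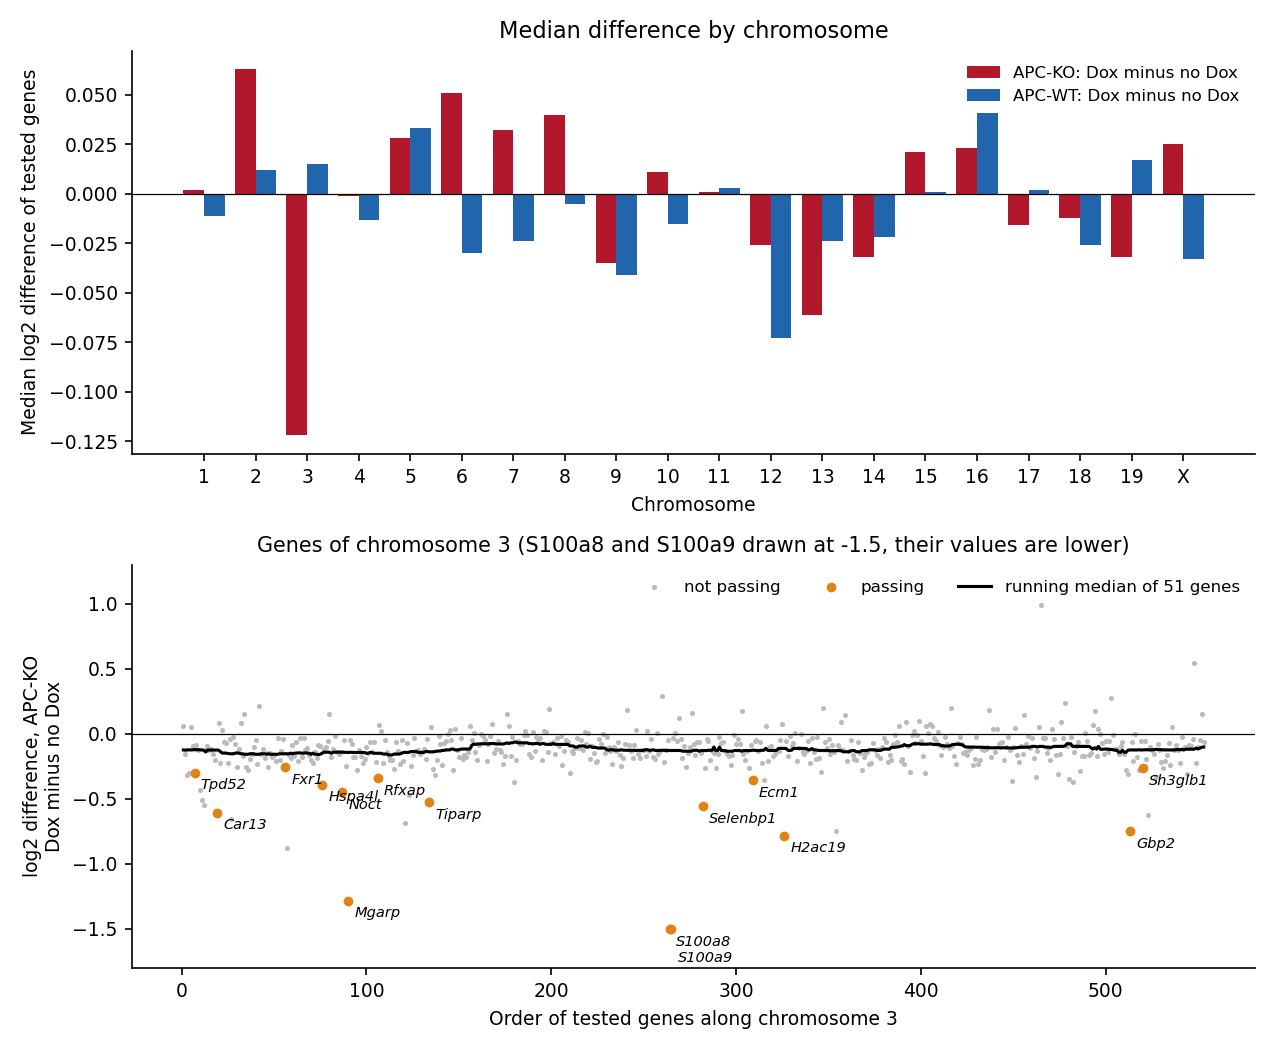
The upper panel gives the median log2 difference, Dox minus no Dox, of the tested genes of each chromosome, in APC-KO (red) and APC-WT (blue) tumours. The lower panel gives the genes of chromosome 3 in their order with their running median: the line stays below 0 along the chromosome, and 15 passing genes are named.

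The 15 genes differed in size of change. The larger falls include S100a8, S100a9 and Mgarp, as given above, and H2ac19, a histone H2A gene with near-identical copies that the probe set may not separate, which read 7.52, 7.17 and 7.64 in APC-KO Dox tumours, against 8.26, 8.42 and 8.00 in APC-KO no-Dox tumours, and fell by 0.78 ± 0.12. Gbp2, an interferon-inducible GTPase, fell by 0.75 ± 0.15. It was the 1 passing gene of 21 interferon-stimulated genes, against 0.506% of all genes tested that fell, and the median of the 21 was 0.026. Smaller falls were those of Fxr1, an RNA-binding protein, by 0.26 ± 0.05, Sh3glb1, a membrane-bending protein, by 0.26 ± 0.05, Tpd52, a vesicle trafficking protein, by 0.30 ± 0.05, Rfxap, a regulator of MHC class II genes, by 0.34 ± 0.07, and Ecm1, an extracellular matrix protein, by 0.36 ± 0.06. In between lay Hspa4l, a heat shock protein (-0.39 ± 0.07), Noct, a circadian phosphatase (-0.45 ± 0.08), and Car13, a carbonic anhydrase (-0.61 ± 0.12). Selenbp1, a selenium-binding protein, read 5.42, 5.56 and 5.49 in APC-KO Dox tumours, where 2 arrays were under the floor, against 6.19, 5.95 and 6.00 in APC-KO no-Dox tumours (adjusted p 0.0375). When each chromosome was centred on each array, an alternative added after seeing the data, 49 genes passed, and 41 of the 60 were among them. Of the 15 on chromosome 3, 5 passed, Mgarp, Tiparp, S100a8, S100a9 and H2ac19.

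Other readings of the same genes had the same direction, though not always the same size. Of the 60 genes 23 had a further probe set above the floor, 43 probe sets in all. Each of the 43 differed in the same direction as the one tested, and 21 passed over all probe sets. Cxcl1 differed by -0.57 ± 0.23 at a further probe set, which did not pass, and by -2.20 ± 0.37 at another, which did. The further probe sets of Fxr1 stood at -0.09, -0.17 and -0.20, and none passed. For 37 genes there was none. Such probe sets were read on the same arrays and are no independent samples. Among genes in no list that fell were Flot1, a lipid raft protein (by 0.32 ± 0.06), Pnrc1, a nuclear receptor coactivator (by 0.43 ± 0.08), Basp1, a membrane protein of growing axons (by 0.44 ± 0.08), and Tbx3, a developmental transcription factor (by 0.52 ± 0.11).

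Beside these values, the signal of 18S ribosomal RNA, a mean over its control probe sets, was 8.96, 9.04 and 9.24 with Dox in APC-KO tumours, against 9.47, 9.76 and 9.56 without Dox, and 9.06 to 9.33 in APC-WT tumours. Its part in the result was not tested. Single tumours carried weight. Of the 56 genes that fell, APC-KO Dox replicate 1 was the highest of its group for 41 and APC-KO no-Dox replicate 3 the lowest of its group for 40. Without APC-KO Dox replicate 3, Slc2a1 alone passed, with an adjusted p of 0.0498. There were 4 genes without APC-KO no-Dox replicate 1, 14 without APC-KO Dox replicate 2, 38 without APC-WT Dox replicate 2 and 92 without APC-KO Dox replicate 1. The direction of the 60 could not turn with 1 array left out, because their groups did not overlap and APC-WT arrays do not enter the difference. That it was kept is therefore no support.

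Set beside APC-intact tumours, all 56 genes differed further below 0 in APC-deleted ones, which their choice favours, and no gene passed the test of that difference. In APC-WT tumours 3 genes passed with Dox (0.0271% of those tested), none of them among the 56. They were Ccng2, a cyclin, Ms4a4d, a membrane protein, and Eif1ad, an initiation factor-like protein, at -0.76 ± 0.09, -1.82 ± 0.24 and 0.39 ± 0.05 in APC-WT tumours, and at -0.41 ± 0.09, -0.40 ± 0.24 and -0.02 ± 0.05 in APC-KO tumours. Of the 56, 45 lay below 0 there with a median of -0.15, and 14 had an unadjusted p under 0.05 in the lower direction, as did 9.03% of all genes. The interaction, the change with Dox in APC-KO tumours minus that in APC-WT tumours, passed for 0 genes (0%) in limma, with a smallest adjusted p of 0.129, and had an unadjusted p under 0.05 for 11.9% of all genes and 51 of the 60. Those 51 were chosen by 1 arm of that difference and so are no support for it. With Dox, Slc2a1 differed by -1.22 ± 0.14 in APC-KO and -0.11 ± 0.14 in APC-WT tumours, an interaction of -1.11 ± 0.20. Cxcl1 differed by -2.57 ± 0.46 in APC-KO and 0.56 ± 0.46 in APC-WT tumours, an interaction of -3.13 ± 0.65, and Serpinf1 by 0.78 ± 0.15 in APC-KO and -0.21 ± 0.15 in APC-WT tumours, an interaction of 0.99 ± 0.21. By contrast Ccn2 differed by -1.48 ± 0.23 in APC-KO and -1.09 ± 0.23 in APC-WT tumours, and Dusp1 by -0.77 ± 0.16 in APC-KO and -0.65 ± 0.16 in APC-WT tumours, with interactions of -0.39 ± 0.32 and -0.13 ± 0.23.

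**Figure D5:**
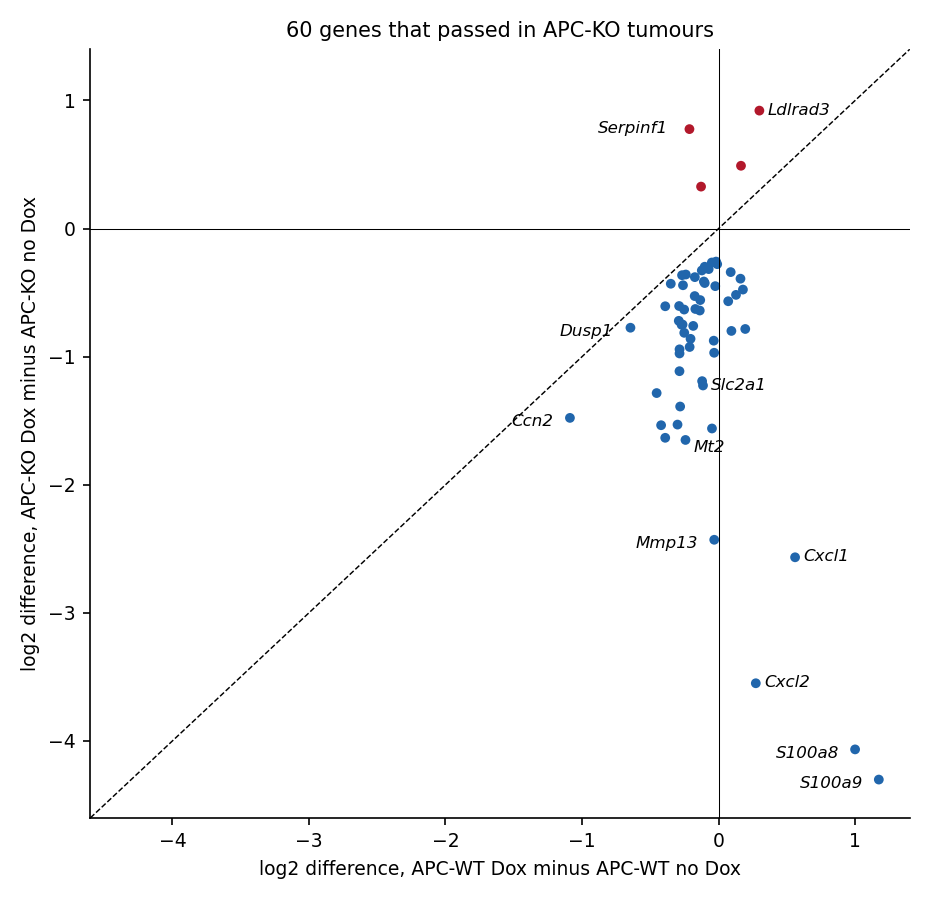
Each point is 1 of the 60 genes that passed in APC-KO tumours, with its log2 difference, Dox minus no Dox, in APC-WT tumours on the x axis and in APC-KO tumours on the y axis. The dashed line marks equal differences: Ccn2 and Dusp1 lie near it, and S100a9, S100a8, Cxcl2 and Cxcl1 lie right of 0 on the x axis.

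Levels in the 4 groups placed these changes in different ways. Of the 56 genes that fell, the APC-KO no-Dox mean was the highest of the 4 groups for 49, and all 3 of its values lay above all 6 APC-WT values for 26. For the chromosome 3 genes the count was 9 of 15. The APC-KO Dox mean was the lowest of the 4 for 39, and all 3 of its values lay below all 6 APC-WT values for 19, among them Mt1, Mt2, Mmp13, Ndrg1, Pfkl, Aldoa and Cdkn1a. Ier3 is an example of the first kind, at 9.14 in APC-KO Dox and 10.70 in APC-KO no-Dox tumours, against 9.12 in APC-WT Dox and 9.17 in APC-WT no-Dox tumours. Mt2 is an example of the second, at 9.79 in APC-KO Dox and 11.44 in APC-KO no-Dox tumours, against 11.40 in APC-WT Dox and 11.64 in APC-WT no-Dox tumours. The genes were chosen for a difference between the 2 APC-KO groups, so such placements are a description. Over all 11070 genes tested, the APC-KO no-Dox mean was the highest of the 4 for 2771 and the APC-KO Dox mean the lowest for 2634. The 3 APC-KO no-Dox values lay above all 6 APC-WT values for 1523 of them, and the 3 APC-KO Dox values lay below for 1290.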

How the data were processed

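RNA of the tumours had been hybridised to Affymetrix mouse arrays. The table deposited by the authors holds log2 expression values, which ranged from 1.86 to 14.16. The submitters' processing notes name MAS5 for these deposited values, and the sources used here give neither its version nor its settings. Array medians lay between 5.53 and 5.58, and the steps that led to these and to the log2 scale are not known. Of 45101 probe sets, 34945 had 1 gene symbol, 34741 of these were matched to RefSeq by Entrez ID, and a gene was read by its brightest probe set. One mean per group was estimated from all 12 arrays by limma 3.58.1 (R 4.3.3; lmFit, eBayes with a trend), with 2-sided p-values under Benjamini-Hochberg adjustment over 11070 genes. The script was tested on simulated data. The number of arrays limits the precision. No array values were scaled further.

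The members and the gene lists were chosen with earlier results of these data known. Named are Tdo2 and Apc, every gene that passed, genes of smallest p or largest difference in each direction, the list members of smallest p, the brightest cell type markers and the genes of largest SD in an APC-KO group. Genes under the floor and others named outside that rule were chosen after their values were seen. Bounds and the promoter motifs were set after the data were seen. Promoters and gene order come from RefSeq (GRCm38.p6). Replicate numbers did not pair the samples. Alternatives were other eBayes settings, array subsets, probe set summaries, filters, quantile normalization, array weights, a replicate block, 1 array left out, and chromosome centring. Python 3.11.15 with matplotlib 3.10.9 drew the figures.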

Additional observations from a re-analysis of the deposited data

How the results depend on the processing

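The count of 60 genes with Dox in APC-KO tumours was 29 with eBayes without a trend, 36 with only the 6 APC-KO arrays and 35 with the mean of probe sets, and lay between 1 and 92 with 1 array left out. Without APC-KO Dox replicate 3 it was 1, without APC-KO no-Dox replicate 1 it was 4, without APC-KO Dox replicate 2 it was 14, without APC-WT Dox replicate 2 it was 38 and without APC-KO Dox replicate 1 it was 92. It was 67 with no filter on low values, 42 with the 75th percentile filter, 67 with quantile normalization, 54 with array quality weights and 49 with each chromosome centred. The interaction count of 0 was 13 with array quality weights and lay between 0 and 119 with 1 array left out, 119 without APC-WT no-Dox replicate 3 and 1 with APC-KO no-Dox replicate 1 left out. The cause was not tested in any of these. Same-numbered APC-KO tumours did not deviate together (r of -0.113, -0.059 and -0.139), and a replicate block gave 43 genes, 39 of them among the 60. Of the 60, 10 passed in each of the 9 settings other than those that leave out 1 array, and 21 could not be tested with the 75th percentile filter and 7 with the mean of probe sets. Of 123 named genes, 85 were tested with the 75th percentile filter, 116 with the mean of probe sets and all in the other settings. Where tested, 1 turned its direction, Eif1ad, which had not passed in APC-KO tumours: it stood at 0.0041 with the mean of probe sets and at 0.0142 with each chromosome centred. The cause was not tested. Signal near the floor limits what can be said of genes such as Tdo2, Cxcl3 and Il6.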

Other observations

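Immune effector genes gave values that did not pass. All 9 tested granzyme and perforin genes lay below 0 with Dox in APC-KO tumours, against 49.2% of all genes tested. Their median was -0.20, but their groups overlapped for each. Gzmd, a granzyme, read 4.48, 6.00 and 3.26 in APC-KO Dox tumours, against 7.32, 5.38 and 7.10 in APC-KO no-Dox tumours (adjusted p 0.187), with 2 Dox values and 1 no-Dox value under the floor. Antigen presentation genes lay below 0 for 15 of 16, against the same 49.2%, with a median of -0.24, and 0 passed in limma. Tapbp, which loads peptide on MHC class I, stood at -0.24 ± 0.06 in APC-KO tumours, with no overlap. Groups did not overlap, Dox lower, for 4 of the 16, against 9.67% of all genes tested. In APC-WT tumours all 16 lay below 0, with a median of -0.17. The interferon-stimulated genes had a median of 0.026 in APC-KO tumours and -0.54 in APC-WT tumours. All 21 lay below 0 in APC-WT tumours, as did 5863 of the 11070 genes tested.

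Stress and housekeeping programmes lay near 0 in APC-KO tumours. Medians were 0.031 for ribosome assembly, 0.033 for ER chaperones, 0.025 for cholesterol synthesis, -0.044 for NRF2 targets and 0.051 for the mitochondrial stress response, with 0 members passing in limma. Of 11 tested cytosolic heat shock genes 1 fell, Hspa4l of chromosome 3, against 0.506% of all genes tested. It did not pass in limma with each chromosome centred (adjusted p 0.11). Dnajb1, a co-chaperone, read 10.05, 9.94 and 10.00 in APC-KO Dox tumours, against 10.74, 10.31 and 10.60 in APC-KO no-Dox tumours, without passing (adjusted p 0.079). Krt8, a keratin of simple epithelium, read 9.02, 7.20 and 8.57 with Dox, against 10.09, 9.13 and 9.58 without (-1.34 ± 0.41, adjusted p 0.189). Tslp, an epithelial cytokine, varied most among the APC-KO no-Dox tumours, at 8.38, 5.20 and 8.39, against 6.58, 6.27 and 6.74 in APC-KO Dox tumours.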
